A study of Mus musculus with 4 samples.

Results

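Tissue-resident macrophages are the macrophages that settle in an organ and keep up their numbers there, and in fat they lie along vessels and between adipocytes, where they clear dead cells, debris and free haemoglobin. In obese fat they are joined by macrophages that come from blood monocytes, gather around dying adipocytes and load lipid. The resident cells are commonly recognised by scavenger receptors and lectins on their surface, and most macrophages depend on the growth factor receptor encoded by Csf1r.

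The 10 genes described here are a list of such markers chosen by name: Mrc1, Cd163, Folr2, Timd4, Clec10a, Mgl2, F13a1, Cbr2, Adgre1 and Csf1r. All 10 were found among the 17335 genes of the deposited table, and all 10 reached 0.1 FPKM in at least 1 library, as did 15839 genes in all. FPKM is a count of fragments scaled to the length of the gene and to the size of the library.

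RNA-seq was performed on gonadal white adipose tissue (gWAT) of female mice kept for 18 weeks on a high-fat diet (HFD) with 60% of calories from fat. Floxed controls (fl/fl) carry loxP sites around part of the Dnmt1 gene and have no deletion, while their AD1KO littermates carry the same floxed gene with a Cre driven by the adiponectin promoter, a promoter active in adipocytes, where it deletes that part of Dnmt1. RNA of 4 animals per group was pooled in equal amounts, so each group gave 1 library, and neither the spread between animals nor a test of the genotype can be had. The age of the mice was not given in the sources used here.

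Low FPKM values fell on whole steps in each library, from which the depth was estimated as 17690000 reads for fl/fl and 17480000 for AD1KO. Reads per gene follow from these depths. Every interval given is a 95% interval on the reads by the exact Clopper-Pearson method, and covers counting error only. Ratios are log2 values of AD1KO divided by fl/fl, each with 0.01 FPKM added. A gene is called lower or higher where this ratio is at or past 0.5 in either direction, the study's own threshold. Dnmt1, the targeted gene, counted here over its whole length and not over the deleted part alone, stood at 6.99 FPKM in fl/fl and 3.33 FPKM in AD1KO (log2 ratio -1.07, interval -1.27 to -0.87), in the direction of the labels. Genes known from macrophages in general, described below, had a median log2 ratio of -1.17. The part of a shift in cell types in the Dnmt1 value was not tested.

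The markers of resident macrophages did not move together. Of the 10 genes, 6 were lower in AD1KO, against 19.1% of all tested genes, and 2 were higher, against 14.3% of all tested genes. All 10 reached 1 FPKM in at least 1 library, and among all genes that did, 16.3% were lower and 10.1% higher. The lower genes were Adgre1, Csf1r, Mrc1, Timd4, Folr2 and Clec10a, with log2 ratios from -1.26 to -0.61. The higher genes were Mgl2 and Cbr2, at 0.53 and 0.91. Cd163 and F13a1 lay between the thresholds, at 0.30 and 0.35. The median log2 ratio of the 10 genes was -0.63, beside -0.04 over all tested genes. Without Adgre1 and Csf1r, which macrophages in general express, the median of the remaining 8 was -0.16. That median is the midpoint of Clec10a (-0.61) and Cd163 (0.30), a gap in which none of the 10 genes lies, so it describes no single gene. In whole tissue, fewer cells of a type and less RNA per cell cannot be told apart.

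**Figure D1:**
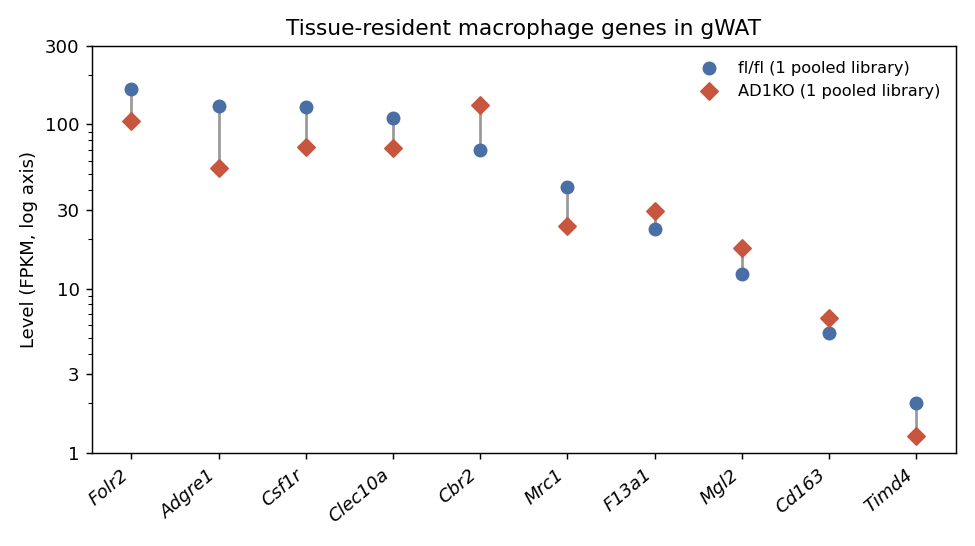
Level of each gene in FPKM on a log axis in the fl/fl library (blue circles) and the AD1KO library (red diamonds), with genes in order of their fl/fl level. Levels ran from 1.27 FPKM for Timd4 to 165 FPKM for Folr2, and the red diamond lies above the blue circle for Cbr2, F13a1, Mgl2 and Cd163.

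Adgre1 and Csf1r are expressed by macrophages in general. Adgre1, which encodes the adhesion receptor recognised by the F4/80 antibody, stood at 130 FPKM in fl/fl and 54.3 FPKM in AD1KO. Its log2 ratio of -1.26 (interval -1.32 to -1.20) was the lowest of the 10, from an estimated 7175 and 2962 reads. Csf1r encodes the receptor for the growth factors CSF1 and IL-34 on which most macrophages depend. It stood at 127 FPKM in fl/fl and 72.8 FPKM in AD1KO, with a log2 ratio of -0.81 (interval -0.86 to -0.75). The intervals of these genes lay apart, so the fall of Adgre1 exceeded that of Csf1r by more than counting error, with a gap of 0.45 on the log2 scale.

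Mrc1 encodes the mannose receptor, an endocytic lectin that takes up glycoproteins. Its level was 41.8 FPKM in fl/fl and 24.0 FPKM in AD1KO, a log2 ratio of -0.80 (interval -0.88 to -0.73). That ratio differed from the ratio of Csf1r by 0.003 on the log2 scale, less than counting error. Folr2, which encodes the folate receptor beta of resident macrophages, was the most abundant of the 10 in fl/fl, at 165 FPKM, and stood at 105 FPKM in AD1KO. Its log2 ratio was -0.65 (interval -0.74 to -0.56).

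Timd4 encodes a receptor for phosphatidylserine, the lipid that dying cells expose. With 2.00 FPKM in fl/fl and 1.27 FPKM in AD1KO it was the scarcest of the 10 in both libraries. About 73 and 46 reads lie behind its log2 ratio of -0.65, and its interval from -1.21 to -0.10 is the widest. It overlapped those of Mrc1, Folr2 and Csf1r, and at this depth the ratio of Timd4 could not be set apart from theirs.

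Clec10a and Mgl2 encode closely related lectins that bind galactose and N-acetylgalactosamine, and dendritic cells express them too. The genes went opposite ways. Clec10a was at 109 FPKM in fl/fl and 71.4 FPKM in AD1KO, a log2 ratio of -0.61 (interval -0.70 to -0.52), while Mgl2 had 12.3 FPKM in fl/fl and 17.8 FPKM in AD1KO, with its log2 ratio at 0.53 (interval 0.32 to 0.74). There was 8.86 times as much Clec10a as Mgl2 per length in fl/fl and 4.02 times as much in AD1KO. As the transcripts are alike, reads may be given to the wrong copy: 16.7% of the stretches of 50 bases in the longest annotated Clec10a transcript also occur in that of Mgl2. Summed over both genes, the estimated reads were 2982 for fl/fl and 2180 for AD1KO, and the log2 ratio of these sums was -0.43 (interval -0.52 to -0.35).

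Cbr2 encodes a mitochondrial carbonyl reductase. It rose in order more than any other gene of the set, from the fifth highest level in fl/fl (70.1 FPKM) to the highest in AD1KO (131 FPKM). Its log2 ratio was 0.91 (interval 0.80 to 1.01), from an estimated 1122 and 2077 reads, and the whole interval lay past 0.5, as it did for 4.18% of all tested genes. F13a1 encodes the A subunit of coagulation factor XIII, a transglutaminase that crosslinks fibrin. It was at 23.2 FPKM in fl/fl and 29.6 FPKM in AD1KO, and its log2 ratio of 0.35 (interval 0.25 to 0.45) stayed short of the threshold by more than counting error.

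Cd163 encodes the scavenger receptor that takes up haemoglobin bound to haptoglobin. Its level was 5.39 FPKM in fl/fl and 6.62 FPKM in AD1KO, a log2 ratio of 0.30 that is not past the threshold. No interval is given for Cd163, because the length of 8913 bases listed for it is 1.98 times that of its longest annotated coding transcript, 4492 bases, so that its reads are uncertain. For the other 9 genes the listed length was within a factor of 1.5 of the annotation.

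**Figure D2:**
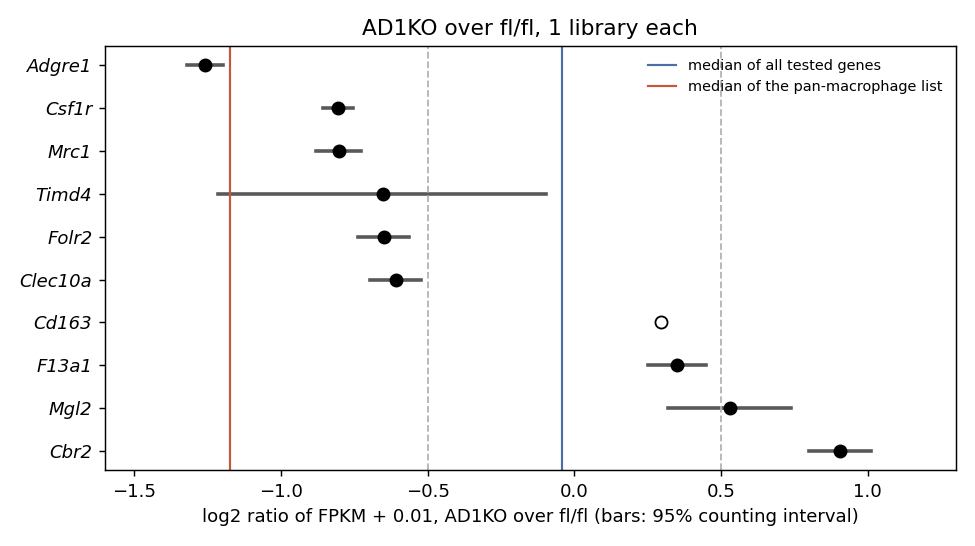
The log2 ratio of each gene, AD1KO divided by fl/fl with 0.01 FPKM added to both, with bars for the 95% counting interval, dashed lines at -0.5 and 0.5, a blue line at the median of all tested genes (-0.04) and a red line at the median of the pan-macrophage list (-1.17). The open circle of Cd163 has no interval. A gap of 0.90 on the log2 scale separates the 6 lower genes from the remaining 4.

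Counting error alone leaves this split in place. The whole interval lay below -0.5 for 5 of the 10 genes, all of the lower ones but Timd4, against 8.32% of all tested genes. It lay above 0.5 for Cbr2 alone, as for 4.18% of all tested genes. The interval lay above 0 for Cbr2, Mgl2 and F13a1, and how many of all tested genes did so was not counted. It lay there for 5 of 7 blood endothelial genes and 0 of 14 pan-macrophage genes. In the order of ratios, neighbours from Csf1r to Clec10a had overlapping intervals, as did F13a1 and Mgl2. The wide interval of Timd4 stands in the middle of that order: Csf1r lay apart from Folr2 and Clec10a, and Mrc1 lay apart from Clec10a. Likewise Adgre1 stood below Csf1r and Cbr2 above Mgl2 with intervals apart. These intervals hold no spread between animals.

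The 6 lower genes made up 83.8% of the summed FPKM of the set in fl/fl and 63.9% in AD1KO. Mgl2 and Cbr2 together went from 12.0% to 29.0%. The whole set summed to 686 FPKM in fl/fl and 514 FPKM in AD1KO, a log2 ratio of -0.41.

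Set against Csf1r in the same library, the genes fell into 3 kinds. Mrc1 was at 32.9% of the Csf1r level in both libraries. Timd4 was at 1.57% in fl/fl and 1.75% in AD1KO, Folr2 at 130% and 145%, and Clec10a at 85.6% and 98.1%. The intervals of Mrc1 and Timd4 overlapped that of Csf1r, while those of Folr2 and Clec10a lay above it, with log2 ratios 0.16 and 0.20 above that of Csf1r. Adgre1 went down, from 102% to 74.6%. The third kind went up: Cbr2 from 55.1% to 181%, Mgl2 from 9.66% to 24.4%, F13a1 from 18.2% to 40.7% and Cd163 from 4.24% to 9.10%. Per unit of Csf1r these 4 genes were thus 2.15 times (Cd163), 2.23 times (F13a1), 2.53 times (Mgl2) and 3.28 times (Cbr2) as high in AD1KO as in fl/fl. Csf1r itself was lower, and 12.0% of all tested genes were at or below its ratio, so most tested genes rise on this scale. By their own ratios, Cd163 and F13a1 were not past the threshold.

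**Figure D3:**
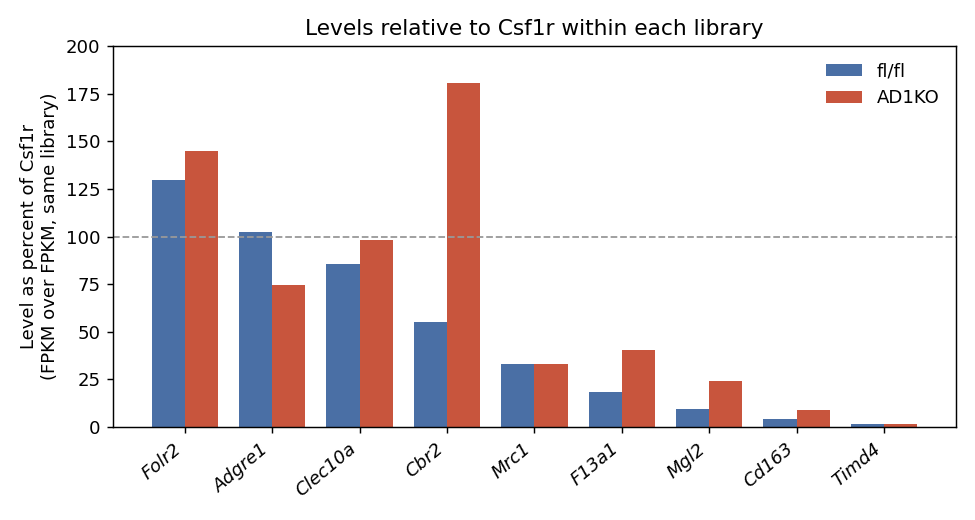
Level of each gene as a percent of the Csf1r level of the same library, in fl/fl (blue bars) and AD1KO (red bars), with a dashed line at 100%. Cbr2 passes the line in AD1KO only, at 181%, and F13a1, Mgl2 and Cd163 at least double, while Mrc1 stays at 32.9%. Csf1r itself was lower in AD1KO (log2 ratio -0.81), so most tested genes rise on this scale.

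Upstream sequences are shown for Mrc1 and Timd4, which were lower, and Mgl2 and Cbr2, which were higher, so that the regions ahead of genes that went opposite ways can be read side by side. They are the 250 bases before the annotated start, from RefSeq on GRCm38.p6, 5′ to 3′ along the gene. Capitals mark a 6-base form of the site of PU.1 (gaggaa, or ttcctc on the other strand), the macrophage factor encoded by Spi1. Other forms of the site were not searched and are not marked. The regions are chr2:14229164-14229413 on the plus strand for Mrc1, chr11:46810549-46810798 on the plus strand for Timd4, chr11:70130107-70130356 on the plus strand for Mgl2 and chr11:120732022-120732271 on the minus strand for Cbr2.
Mrc1: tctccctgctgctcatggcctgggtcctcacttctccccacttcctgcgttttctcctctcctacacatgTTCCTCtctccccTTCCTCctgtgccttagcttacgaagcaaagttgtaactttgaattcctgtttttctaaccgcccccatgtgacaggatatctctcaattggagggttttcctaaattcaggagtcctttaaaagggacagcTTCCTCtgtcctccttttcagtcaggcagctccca
Timd4: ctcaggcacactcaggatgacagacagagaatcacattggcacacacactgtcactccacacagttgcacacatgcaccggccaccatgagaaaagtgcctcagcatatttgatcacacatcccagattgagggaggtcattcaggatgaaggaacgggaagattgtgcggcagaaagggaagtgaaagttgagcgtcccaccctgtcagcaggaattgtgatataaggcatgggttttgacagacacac
Mgl2: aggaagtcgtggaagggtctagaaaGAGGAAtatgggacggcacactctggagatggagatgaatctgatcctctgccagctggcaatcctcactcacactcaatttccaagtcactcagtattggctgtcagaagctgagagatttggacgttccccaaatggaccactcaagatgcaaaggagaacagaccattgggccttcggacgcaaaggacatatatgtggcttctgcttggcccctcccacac
Cbr2: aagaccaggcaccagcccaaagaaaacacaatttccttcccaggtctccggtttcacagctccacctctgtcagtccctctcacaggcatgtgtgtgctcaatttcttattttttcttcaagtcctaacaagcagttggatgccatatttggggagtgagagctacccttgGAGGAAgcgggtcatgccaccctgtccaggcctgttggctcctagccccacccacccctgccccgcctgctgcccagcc

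This 6-base form was found 3 times ahead of Mrc1, once each ahead of Mgl2 and Cbr2, and not ahead of Timd4. Of the 32851 windows of 250 bases in the table, 23.3% hold it. A window without it may still hold another form of the PU.1 site. RefSeq windows were matched for 7 of the 10 genes, all but Clec10a, Adgre1 and Csf1r, which gave 9 windows, as Folr2 and F13a1 have a pair of starts each. The 6-base form was in 1 of the 2 windows of F13a1, in neither window of Folr2 and not in that of Cd163. CpG pairs, the sites that DNMT1 methylates, numbered from 0 (Cd163) to 5 (Mgl2) in these 9 windows, beside a median of 6 in all windows. A match of letters is a description, and DNA methylation at these genes was not analysed here.

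Other genes known from resident macrophages had members on both sides of the threshold. Of 25 such genes, 7 (28%) were lower and 5 (20%) higher, beside 19.1% and 14.3% of all tested genes, and their median log2 ratio of -0.07 was near the -0.04 of all tested genes. All 25 reached 1 FPKM in at least 1 library, and among all genes that did, 16.3% were lower and 10.1% higher. Those lower were the complement subunits C1qa, C1qb and C1qc, the chemokine genes Ccl8 and Pf4, the complement receptor gene Vsig4 and Hmox1, which encodes a haem-degrading enzyme. Ccl8 had the lowest ratio, -2.10, from 557 to 130 FPKM. C1qb, the most abundant at 1724 FPKM in fl/fl, stood at 631 FPKM in AD1KO (log2 ratio -1.45). The higher genes were Cd209b, Cd209d, Cd209f and Cd209g, which encode lectins of the DC-SIGN family, and Fcna, which encodes a ficolin. Cd209b was at 1.46 FPKM in fl/fl and 6.64 FPKM in AD1KO, with a log2 ratio of 2.18 (interval 1.75 to 2.67). Cd209f had 19.9 and 38.4 FPKM, and its log2 ratio was 0.95 (interval 0.77 to 1.13). As the Cd209 genes belong to a single family, reads may be given to the wrong member, and sequence shared between them was not measured. Apart from Ccl8, C1qb and Cd209b, the genes in this paragraph were named after their values were seen.

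Genes known from macrophages in general were lower nearly throughout, and the part of other leukocytes in their values was not tested. On the pan-macrophage list 13 of 14 genes were lower and 0 were higher, with a median of -1.17. Ratios ran from -2.14 for Aif1 (81.7 to 18.6 FPKM) to -0.48 for Mertk (6.33 to 4.55 FPKM). Lyz2, the lysozyme gene and the most abundant of them, went from 2341 to 1187 FPKM (log2 ratio -0.98). Adgre1, at -1.26, lay near the median of that list, and the other 9 of the 10 genes lay above that median. So did most tested genes: 5.98% of them were at or below the ratio of Adgre1 and 12.0% at or below that of Csf1r. The lipid-associated macrophage list had 11 of 12 genes lower and 0 higher, with a median of -1.07, from Mmp12, an elastase gene (165 to 61.0 FPKM, log2 ratio -1.44), to Fabp5 (311 to 298 FPKM, log2 ratio -0.06). Its most abundant gene, Lgals3, went from 1572 to 753 FPKM (-1.06). Cd163, F13a1, Mgl2 and Cbr2 had ratios above those of all 14 pan-macrophage genes. Most tested genes did too, as 19.1% of them were at or below -0.5.

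**Figure D4:**
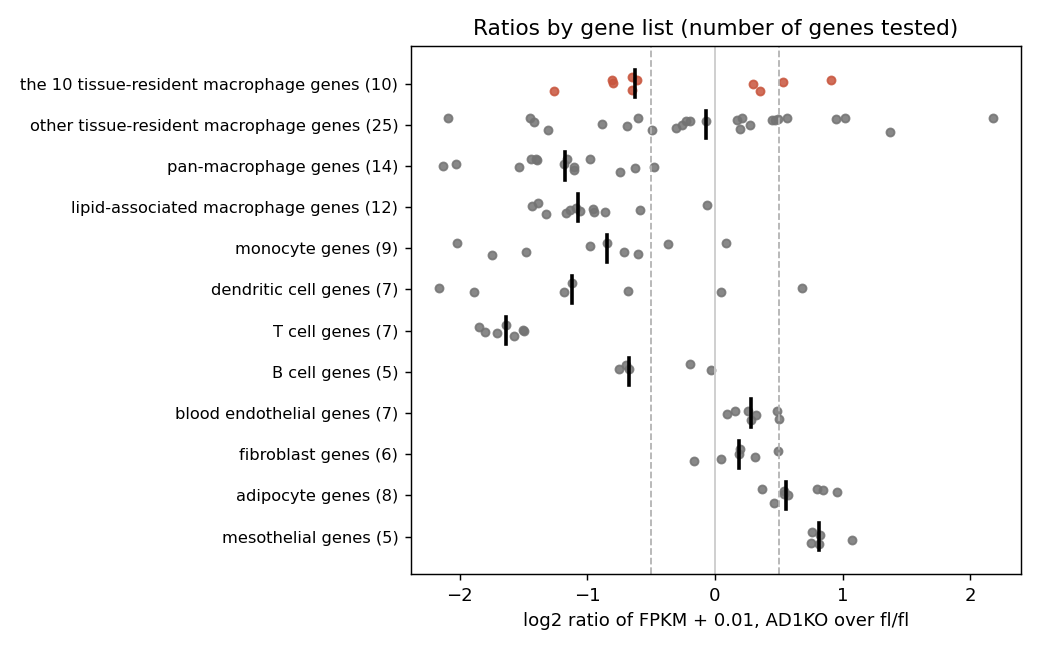
The log2 ratio of each tested gene by list, with the 10 genes in red, other lists in grey, black bars at list medians and dashed lines at -0.5 and 0.5. The 10 genes and the 25 other resident macrophage genes spread on both sides of 0, while the pan-macrophage genes all lie below 0, with a median of -1.17.

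Other leukocyte genes were mostly lower too. All counts in this and the following lists stand beside 19.1% of all tested genes lower and 14.3% higher. Of 9 monocyte genes 7 were lower and 0 higher (median -0.84), from Ly6c2 (39.2 to 9.62 FPKM, log2 ratio -2.03) to Ifitm6 (7.34 to 7.81 FPKM, ratio 0.09), with Plac8 the most abundant (72.1 to 36.6 FPKM, ratio -0.98). The dendritic cell list, which bears on Clec10a and Mgl2, had 5 of 7 genes lower and 1 higher (median -1.12). Clec9a of the cross-presenting cells went from 5.51 to 1.22 FPKM (ratio -2.17), while Cd209a went from 2.23 to 3.59 FPKM (ratio 0.68). Batf3 was the most abundant (12.9 to 5.66 FPKM). All 7 T cell genes in the table were lower, with ratios from -1.85 (Cd3g) to -1.50 (Cd8b1), as were 3 of 5 B cell genes. The B cell genes ran from -0.75 (Pax5) to -0.03 (Ms4a1), with Cd79a the most abundant (47.5 to 29.3 FPKM). The 4 peritoneal macrophage genes, which bear on Timd4, were neither lower nor higher, from -0.03 (Serpinb2) to 0.38 (Gata6), with Prg4 at 0.05.

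Markers of adipocytes and mesothelium moved against the leukocyte genes. Of 8 adipocyte genes 6 were higher and 0 lower (median 0.56), from Pparg (84.9 to 110 FPKM, ratio 0.37) to Cidec (1487 to 2885 FPKM, ratio 0.96), and their summed level went from 6078 to 10300 FPKM. Adipoq went from 1911 to 3318 FPKM. All 5 mesothelial genes were higher, from Lrrn4 (ratio 0.75) to Upk3b (ratio 1.07), with a summed level of 66.1 FPKM in fl/fl and 126 FPKM in AD1KO. Of 7 blood endothelial genes 1 was higher and 0 lower, from Pecam1 (ratio 0.10) to Tie1 (ratio 0.50), with Cldn5 at 0.26. The share that was higher is near the 14.3% of all tested genes. Of 6 fibroblast genes 0 were past the threshold, from Pdgfra (-0.17) to Col1a1 (0.49), with Dcn at 0.20. Lymphatic endothelium can express Mrc1. Its defining factor gene Prox1 is listed at 0 in both libraries, while Pdpn was at 16.4 and 16.2 FPKM and Ccl21a, which has near-identical copies, had an estimated 2 reads in fl/fl and a log2 ratio of 8.07 (interval 6.11 to 11.02). Of the 5 tested genes of that list 3 were higher and 0 lower. The part of these other cells in the values of the 10 genes was not tested.

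Growth factors and factors that bear on resident macrophages were examined next. Csf1 and Il34, which encode the ligands of the Csf1r receptor, were at 16.2 and 8.61 FPKM in fl/fl and 12.5 and 7.32 FPKM in AD1KO, log2 ratios of -0.37 and -0.23 that did not reach the threshold. Of the 9 tested colony-stimulating factor and receptor genes, 7 were lower and 0 higher (median -0.83). Flt3 had the lowest ratio of those at 1 FPKM or more, -1.12, and Csf2ra was the most abundant (83.7 to 44.4 FPKM, ratio -0.92). Among 12 genes for type 2 and IL-10 cues and their receptors, 8 were lower and 1 higher (median -0.62, also with Il13, listed at 0 in fl/fl, set to the bound that 3 reads give). Il10 went from 2.14 to 0.62 FPKM (ratio -1.77), Il33 was at 5.74 and 5.80 FPKM, and Tgfb1 went from 101 to 56.4 FPKM (ratio -0.84).

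Of 15 macrophage transcription factor genes, 6 were lower and 1 higher (median -0.29). Irf8 had the lowest ratio (56.6 to 23.8 FPKM, -1.25) and Id3 the highest (72.3 to 102 FPKM, 0.50), while Cebpa, which adipocytes also express, was the most abundant (205 to 260 FPKM, 0.35). Spi1, which encodes PU.1, went from 129 to 60.2 FPKM (ratio -1.10), and Maf, which encodes c-MAF, a factor of resident macrophages, from 47.1 to 41.2 FPKM (ratio -0.19). Both were singled out after their values were seen. Of 9 tested genes of alternative activation, 4 were lower and 1 higher (median -0.31), from Ccl22 (5.28 to 2.01 FPKM, -1.39) to Tgm2 (106 to 159 FPKM, 0.58), with Retnla at 549 and 445 FPKM (ratio -0.31).

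**Figure D5:**
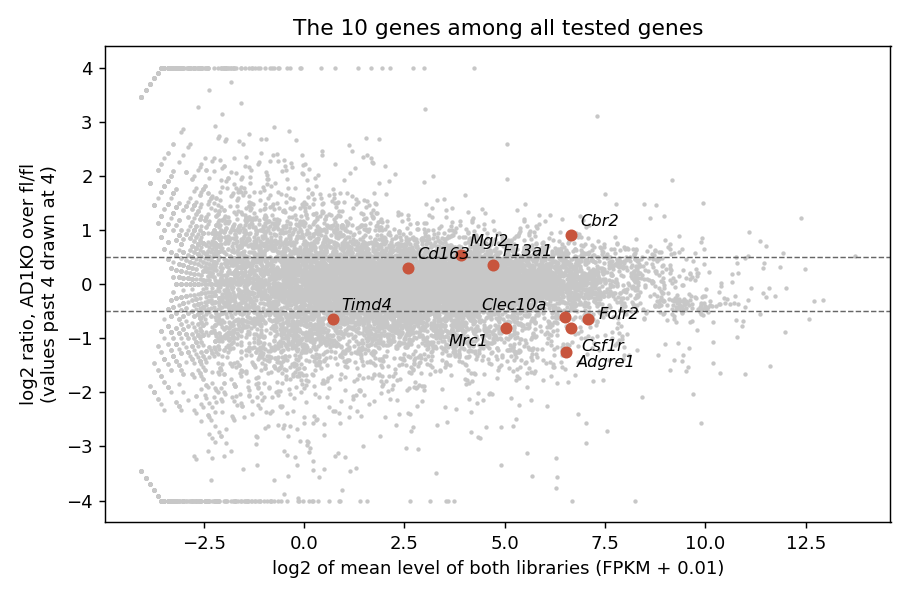
Log2 ratio against the log2 of the mean level of both libraries for all 15839 tested genes (grey) and the 10 genes (red), with dashed lines at -0.5 and 0.5. Ratios past 4 in either direction are drawn at 4. Cbr2 and Adgre1 lie at similar mean levels and on opposite sides of 0, with ratios of 0.91 and -1.26, at percentiles 93.5 and 5.98 of all tested genes.

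In the GENCODE annotation of mm9, the build to which the study aligned its reads, all 10 are protein-coding genes. Mrc1 lies on chromosome 2 (14151041 to 14253684, plus strand), Cd163 on chromosome 6 (124254669 to 124280545, plus strand) and Folr2 on chromosome 7 (108988512 to 108993831, minus strand). On chromosome 11 are Timd4 (46624302 to 46657834, plus strand), Mgl2 (69943831 to 69951052, plus strand), Clec10a (69980125 to 69984336, plus strand) and Cbr2 (120590803 to 120593428, minus strand), with 29072 bases between Mgl2 and Clec10a. F13a1 lies on chromosome 13 (36959047 to 37142113, minus strand), Adgre1, listed there as Emr1, on chromosome 17 (57498109 to 57622952, plus strand) and Csf1r on chromosome 18 (61265226 to 61291803, plus strand). Mrc1 holds the microRNA gene Mir511 on the same strand. Csf1r shares 871 bases with Hmgxb3 on the opposite strand, which was at 3.73 FPKM in fl/fl and 3.68 FPKM in AD1KO. Whether the reads were counted by strand was not given in the sources used here.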

How the data were processed

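RNA of 4 animals per group was pooled and sequenced commercially, as 1 library per group. The authors mapped clean reads to mm9 and deposited a table of expression per gene, taken here as FPKM, since its values fall on whole steps per gene length, with 0 written as 0.01. The file does not name the unit. The aligner and quantifier were not given in the sources used here. The table also holds the authors' own comparison of both libraries (fold changes, P-values and FDR), which was not used. The RRBS libraries were not analysed here.

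Values of 0.01 were set to 0, and 0.01 FPKM was added before log2 ratios were taken. A gene counted as tested where either library had 0.1 FPKM or more, and was compared with the threshold of 0.5. No p-value was computed, as each group has 1 library. Depth was searched between 4000000 and 60000000 reads as the value at which low FPKM, times length less a constant (116 bases for fl/fl, 117 for AD1KO), fall on whole reads. Of 583 low values in fl/fl and 588 in AD1KO, 78.9% and 77.4% lay within 0.1 of a whole read. The scripts were tested on simulated data. No interval was given where the listed length was over 1.5 times the longest annotated transcript, a limit set after the values were seen.

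The 10 genes and the 25 other lists were chosen with earlier results of these data known. The text names all 10 genes and, from each list, the lowest and highest ratio among genes with 1 FPKM or more in either library and the gene most abundant in fl/fl. Symbols were matched exactly, older symbols included, and some genes are on more than 1 list. Alternatives were 3 scalings (trimmed mean of M-values, trimming 30% of ratios and 5% of levels at each end, upper quartile, and median of ratios), pseudocounts of 0.1 and 1 FPKM, other filters and thresholds, and medians without some genes. Software was Matplotlib 3.10.9, pandas 2.3.3, SciPy 1.17.1 and NumPy 2.4.6 under Python 3.11.15.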

Additional observations from a re-analysis of the deposited data

How the results depend on the processing

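No paired analysis was possible because each group is a single pool, and for the same reason no replicate could be left out. Under the 3 scalings and 2 pseudocounts, each of the 10 genes kept the sign of its log2 ratio, which was fixed in advance. A pseudocount cannot change a sign, and the scalings shift every ratio by about 0.04 to 0.09, less than the smallest ratio of 0.30. Of 45 values for the 9 genes with a counting interval, 40 stayed within it, which depends on the width of the interval. The other 5 (Mrc1, Folr2, Clec10a, Adgre1 and Csf1r) were all under upper quartile scaling. Cd163, with no interval, ranged from 0.25 to 0.39. With a pseudocount of 1 FPKM, Timd4 (-0.40) and Mgl2 (0.498) fell short of 0.5, which shrinks the ratio of low genes by construction. The median of the 10 genes, -0.63, was -0.54 with upper quartile scaling, -0.50 with a pseudocount of 1 FPKM and -0.16 without Adgre1 and Csf1r. The last of these values falls in the gap between Clec10a and Cd163, where no gene of the set lies. At a threshold of -1, 1 of the 10 genes was lower in place of 6, beside 1417 of all 15839 tested genes. At that threshold the share of the 10 genes was near the share of all tested genes. Against 3029 lower genes in all, there were 1661 with a pseudocount of 1 FPKM, 1417 at a threshold of -1 and 1318 with the whole counting interval below -0.5. Estimated reads rest on the listed lengths, and with 1 library per group the spread between animals limits every value.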

Other observations

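Relatives of the 10 genes were described in the same way, and their counts stand beside 19.1% of all tested genes lower and 14.3% higher. These lists are short, and some of their shares are near those of all tested genes. Of 9 scavenger receptor genes, which bear on Cd163, 3 were lower and 0 higher, from Msr1 (17.2 to 6.97 FPKM, log2 ratio -1.30) to Cd36 (838 to 926 FPKM, ratio 0.14). Haptoglobin and haem handling genes gave 5 of 11 lower and 2 higher. Slc11a1, an iron transporter gene of phagosomes, had the lowest ratio (-1.41), the ferritin gene Ftl1 was the most abundant (7462 to 4743 FPKM, ratio -0.65), and Hpx, which encodes hemopexin, had the highest ratio (8.43 to 14.5 FPKM, 0.78). Among 11 relatives of the mannose receptor and the C-type lectins, 5 were lower and 1 higher, from Clec4d (19.5 to 6.04 FPKM, ratio -1.69) to Asgr1 (0.98 to 1.38 FPKM, ratio 0.49), with Clec12a at 109 and 37.6 FPKM. Of 11 tested phosphatidylserine recognition genes, which bear on Timd4, 5 were lower and 1 higher, from Havcr2 (2.05 to 0.77 FPKM, ratio -1.40) to Gas6 (68.2 to 94.7 FPKM, ratio 0.47), with Mfge8 at 598 and 620 FPKM.

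Folr1, a folate receptor gene of epithelia, went from 1.83 to 3.90 FPKM (ratio 1.09, interval 0.53 to 1.67), against the direction of Folr2. Of the 3 folate carriers 2 were higher and 0 lower, with Slc19a1 at a ratio of 0.16. Cbr1, Cbr3 and Cbr4, the other carbonyl reductases, had ratios of 0.26, -0.61 and 0.34, so Cbr2 had the highest ratio of the 4. Of 9 transglutaminase and coagulation genes, which bear on F13a1, 2 were lower and 4 higher, from F7 (19.1 to 8.59 FPKM, ratio -1.15) to Fgg (2.44 to 5.05 FPKM, ratio 1.05), with Tgm2 the most abundant. Among 5 adhesion receptor relatives of Adgre1, 0 were lower and 1 higher, from Adgre4 (ratio -0.41) to Adgrg1 (ratio 0.68), with Adgre5 at 58.0 and 50.3 FPKM.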
